A study of Mus musculus with 6 samples.

Results

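The levels of 10 regulators and markers of the epithelial to mesenchymal transition were examined in all 6 arrays of the series. The set was chosen by name. It holds every probe set whose platform annotation gives exactly 1 of 10 gene symbols, namely Snai1, Snai2, Zeb1, Zeb2, Twist1, Twist2, Vim, Fn1, Epcam and Krt8. All 10 genes were found, of 18193 named genes in the table, with 24 of its 45037 probe sets. Zeb2 had 5 probe sets, Zeb1 had 4, Vim and Krt8 had 3 each, Snai2, Fn1 and Epcam had 2 each, and Snai1, Twist1 and Twist2 had 1 each. Probe sets of 1 gene are not independent of each other, and whether they read the same transcripts was not tested.

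The cells came from the mouse embryonic stem (ES) cell line ER71 A17C, of 129P2/Ola background, which carries a doxycycline-inducible Etv2 cassette (ER71 A2Lox.cre). Etv2, an ETS-family factor, is required for endothelial and blood development. Every sample of both groups carried the cassette, was differentiated as embryoid bodies to day 3.5 and was sorted for Flk1, the VEGF receptor encoded by Kdr, which marks early mesoderm. The induced group (n = 3) received doxycycline at 0.5 microg/ml from day 3 for 12 hours, and the control group (n = 3) was untreated according to the design text, although the treatment field of the labels carries the doxycycline text on all 6 samples. The labels name 1 line, and a doxycycline-treated line without the cassette was not analysed here, so an effect of doxycycline and one of Etv2 cannot be told apart. Nothing in the labels says whether the replicates were separate cultures, so the p-values may reflect a spread that is partly technical.

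Epithelial to mesenchymal transition is the process by which cells of an epithelial sheet lose their junctions and polarity and become motile. In the mouse embryo it happens at the primitive streak, where epiblast cells leave the epithelium and become mesoderm. Snail, Zeb and Twist proteins are transcription factors known to repress epithelial genes such as the one for E-cadherin, and Snail and Zeb proteins bind the E-box sequence CAGGTG. Vimentin and fibronectin are classical mesenchymal products, whereas Epcam and keratin 8 belong to epithelial cells. In ES cell cultures Epcam also belongs to the undifferentiated and epiblast-like state.

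The promoter windows that hold this E-box are shown because the set holds both the repressors known to bind it and the epithelial genes. Windows of 250 bases before the gene start were taken from RefSeq (GRCm38.p6), where 7 of the 10 genes were matched with 10 windows. Snai2, Zeb1 and Fn1 were not matched. CAGGTG, searched on both strands (CACCTG on the other), was found in 3 of the 10 windows, those of Snai1, Epcam and Krt8. In each sequence, written 5′ to 3′ in the direction of transcription, capitals mark the E-box.
Snai1, chr2:167537945-167538194, plus strand: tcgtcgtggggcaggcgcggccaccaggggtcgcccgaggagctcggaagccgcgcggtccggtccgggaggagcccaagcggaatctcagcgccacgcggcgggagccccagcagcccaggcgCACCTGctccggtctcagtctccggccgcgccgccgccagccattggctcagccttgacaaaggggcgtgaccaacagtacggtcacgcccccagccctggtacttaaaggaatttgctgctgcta
Epcam, chr17:87635729-87635978, plus strand: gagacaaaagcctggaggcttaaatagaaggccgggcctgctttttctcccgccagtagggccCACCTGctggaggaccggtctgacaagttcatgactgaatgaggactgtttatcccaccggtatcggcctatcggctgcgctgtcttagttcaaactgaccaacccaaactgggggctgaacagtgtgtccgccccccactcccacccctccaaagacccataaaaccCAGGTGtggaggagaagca
Krt8, chr15:102004343-102004592, minus strand: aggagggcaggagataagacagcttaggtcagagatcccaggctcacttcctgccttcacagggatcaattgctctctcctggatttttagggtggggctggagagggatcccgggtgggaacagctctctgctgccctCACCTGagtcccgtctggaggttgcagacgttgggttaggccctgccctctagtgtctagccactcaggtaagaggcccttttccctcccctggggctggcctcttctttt
Counting the base before the start as -1, the E-box began at -126 in Snai1, at -187 and -19 in Epcam and at -111 in Krt8. Among all 32851 windows of that length in the table, 17.2% held at least 1 copy and 2.06% held at least 2. An ETS-type motif, CNGGAAG on either strand (CTTCCNG on the other), was found in the Krt8 window alone among the 10, beside 26.6% of all windows. A match of letters describes the sequence only and does not show that a factor binds there.

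The comparison of induced with control samples asks which of these genes differ after 12 hours of Etv2 induction. None of the 24 probe sets passed the threshold of 0.05 on limma's p adjusted by Benjamini-Hochberg over all probe sets, beside 0.00222% of all probe sets, which is 1 of 45037. At an unadjusted p under 0.05 the count was 0 of 24, beside 1.53% of all. Levels are log2 RMA values, the normalized probe set summaries deposited by the authors, and log2 fold changes are given as induced minus control. Of the 24 log2 fold changes, 14 were above 0, beside 51.2% of all probe sets, and their median was 0.068 against 0.0029 over all. Every adjusted p of the 24 was 0.9998. Fewer cells of a kind and less RNA per cell cannot be told apart in these bulk samples.

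**Figure D1:**
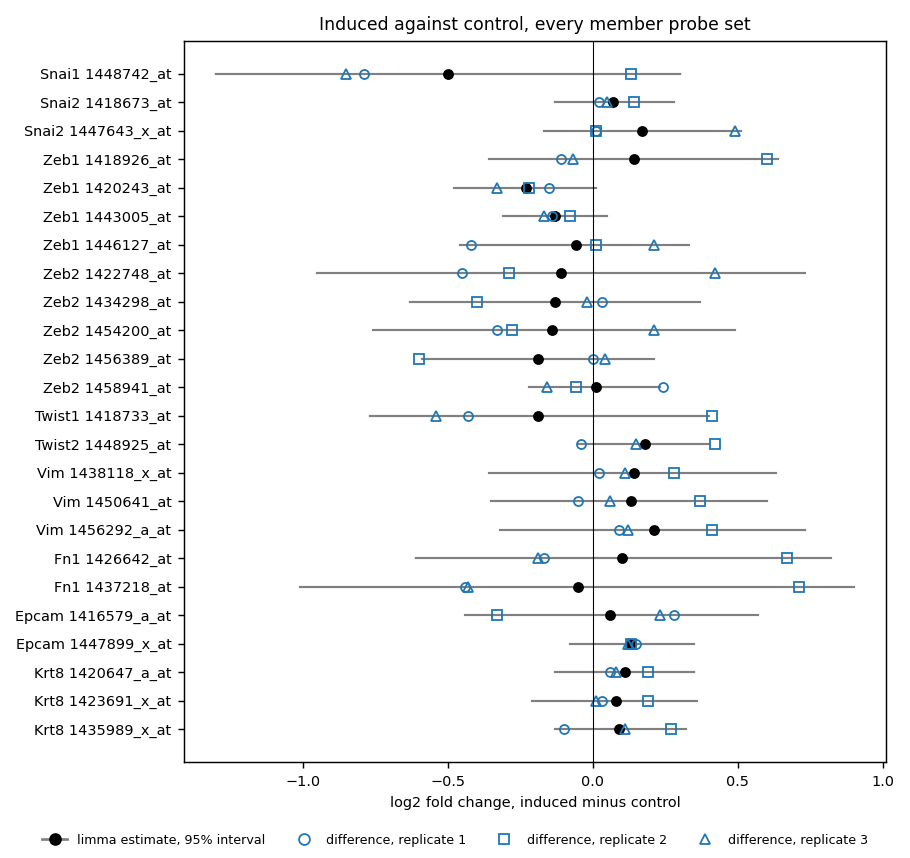
Log2 fold change (induced minus control, horizontal axis) of each of the 24 probe sets: filled points are limma estimates with 95% confidence intervals from 3 arrays per group, and open symbols are the differences between arrays of the same replicate number. Every interval crosses 0, and for Snai1, Twist1 and Fn1 the difference of replicate 2 lies on the other side of 0 from those of replicates 1 and 3. That pattern was found in 7 of the 24 probe sets, beside 30.7% of all probe sets.

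Snai1 encodes Snail, the factor required for cells to leave the epiblast at the primitive streak. Its probe set (1448742_at) read 9.97, 8.78 and 10.2 in controls 1 to 3 and 9.18, 8.90 and 9.35 in induced samples 1 to 3. Controls 1 and 3 lay above every induced sample, while control 2 was the lowest of all 6, so the groups overlapped. The control mean was 9.65 ± 0.76 (SD, n = 3) and the induced mean 9.15 ± 0.23. The log2 fold change was -0.50 ± 0.34 (SE; 95% confidence interval -1.3 to 0.3; limma unadjusted p = 0.182), the most negative of the 24. Leaving out a control moved it both ways. It was -0.23 ± 0.33 without control 3 (limma unadjusted p = 0.511, adjusted p = 0.9918) and -0.34 ± 0.39 without control 1 (limma unadjusted p = 0.415, adjusted p = 0.9999). Without control 2 it was -0.94 ± 0.15 (limma unadjusted p = 0.000389, adjusted p = 0.9934). In the fit without control 2, 4 of the 24 probe sets had an unadjusted p under 0.05, beside 3.97% of all, and none passed after adjustment.

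Snai2 encodes Slug, the relative of Snail known from neural crest. Its probe set 1418673_at read 5.52, 5.50 and 5.68 in controls and 5.54, 5.64 and 5.73 in induced samples. The other, 1447643_x_at, read 5.38, 5.25 and 5.33 in controls and 5.39, 5.26 and 5.82 in induced samples. Both lay below the lower quartile of probe sets on every array, as did 1 probe set of Zeb1. The log2 fold change of 1418673_at was 0.07 ± 0.088.

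Zeb1 and Zeb2 encode zinc finger and homeodomain repressors of epithelial genes. Zeb1 probe set 1418926_at, with the highest mean of its 4, read 7.73, 6.98 and 7.84 in controls and 7.62, 7.58 and 7.77 in induced samples. Control 2 was the lowest array of 1418926_at, and the others lay between 7.58 and 7.84. The log2 fold change was 0.14 ± 0.21, and the other Zeb1 probe sets gave -0.23 ± 0.10, -0.13 ± 0.078 and -0.06. Probe set 1443005_at was the only one of the 24 whose groups did not overlap, beside 6.42% of all probe sets, with controls at 6.97, 6.92 and 7.08 and induced samples at 6.82, 6.83 and 6.91. All 3 induced samples were below all 3 controls there, a pattern found in 3.70% of all probe sets, while 0 of the 24 showed the opposite, beside 2.72% of all. Its limma unadjusted p was 0.131. The smallest limma unadjusted p of the 24, 0.0592, belonged to Zeb1 1420243_at, the dim probe set mentioned with Snai2. It read 4.74, 4.57 and 4.87 in controls and 4.59, 4.35 and 4.54 in induced samples, lower in the induced sample of every same-numbered pair. Differences of the same sign in all 3 pairs were found in 9 of the 24 probe sets, beside 22.9% of all. Zeb1 1446127_at read 5.98, 5.52 and 5.83 in controls and 5.56, 5.54 and 6.05 in induced samples, with overlapping groups.

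The 5 Zeb2 probe sets followed each other in part. Across the 6 arrays 1422748_at and 1454200_at correlated at r = 0.915 and 1434298_at and 1456389_at at r = 0.88, while 1422748_at and 1458941_at stood at r = -0.26. The correlations of the 4 Zeb1 probe sets from 0.306 to 0.867. Zeb2 1422748_at read 8.34, 7.22 and 7.11 in controls and 7.88, 6.92 and 7.53 in induced samples. Control 1 was the highest array for it and induced 2 the lowest, and the log2 fold change was -0.11 ± 0.36. Zeb2 1454200_at was ordered likewise at both ends, with 7.26, 6.43 and 6.70 in controls and 6.93, 6.15 and 6.90 in induced samples. Zeb2 1434298_at read 7.73, 7.68 and 8.13 in controls and 7.76, 7.28 and 8.11 in induced samples. Zeb2 1456389_at read 6.95, 6.98 and 7.04 in controls and 6.95, 6.37 and 7.07 in induced samples. Replicate 3 of both groups was high and induced 2 low in these last probe sets. Zeb2 1458941_at, with the highest mean of the 5, read 8.46, 8.57 and 8.72 in controls and 8.69, 8.51 and 8.56 in induced samples. The 5 log2 fold changes ran from -0.19 to 0.01, and 4 of the 5 probe sets were lowest in induced 2.

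Twist1 and Twist2 encode basic helix-loop-helix factors of early mesoderm and mesenchyme. Twist1 (1418733_at) read 9.65, 8.73 and 9.77 in controls and 9.22, 9.14 and 9.23 in induced samples. Its order resembled that of Snai1, with controls 1 and 3 above every induced sample and control 2 below all of them. The log2 fold change was -0.19 ± 0.25, and without control 2 it was -0.52 ± 0.093 (limma unadjusted p = 0.000815, adjusted p = 0.9934). Without control 1 or control 3 it was -0.05 and 0.01. Twist2 (1448925_at) stood at 7.54, 7.27 and 7.41 in controls and 7.49, 7.69 and 7.56 in induced samples. Its log2 fold change was 0.18 ± 0.097, with overlapping groups.

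Vim encodes vimentin, the intermediate filament protein of mesenchymal cells. Its probe set with the highest mean (1438118_x_at) read 11.52, 11.02 and 11.76 in controls and 11.54, 11.30 and 11.88 in induced samples. Vim 1450641_at read 11.55, 10.98 and 11.74 in controls and 11.50, 11.35 and 11.80 in induced samples. Vim 1456292_a_at read 11.25, 10.64 and 11.47 in controls and 11.34, 11.05 and 11.59 in induced samples. Control 2 was the lowest array and induced 3 the highest in all 3 probe sets. The log2 fold changes of the 3 Vim probe sets were 0.14, 0.13 and 0.21, and the probe sets followed each other across the arrays at r = 0.986 to 0.989.

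Fn1 encodes fibronectin, the matrix protein on which mesoderm cells migrate. Fn1 1426642_at read 13.74, 12.80 and 14.09 in controls and 13.56, 13.46 and 13.90 in induced samples. Fn1 1437218_at read 12.29, 10.92 and 12.64 in controls and 11.84, 11.63 and 12.21 in induced samples. Control 2 was the lowest and control 3 the highest array for both probe sets, and the 3 induced samples lay between them. The log2 fold changes were 0.10 ± 0.31 and -0.05 ± 0.41. The second probe set spanned 1.72 log2 units, a 3.29-fold range between control 2 and control 3, which was wider than the span of 99.6% of probe sets.

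Epcam encodes a cell surface adhesion molecule of epithelia and of undifferentiated ES cells. Epcam 1416579_a_at read 12.45, 13.00 and 12.12 in controls and 12.73, 12.67 and 12.35 in induced samples. It ran opposite to Fn1, with control 2 the highest and control 3 the lowest array. Epcam 1447899_x_at read 10.02, 10.17 and 9.96 in controls and 10.17, 10.30 and 10.08 in induced samples. The log2 fold change was 0.06 ± 0.22 for the first and 0.13 ± 0.093 for the second. The latter was higher in the induced sample of every same-numbered pair, by 0.15, 0.13 and 0.12, with overlapping groups.

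Krt8 encodes keratin 8, an intermediate filament protein of simple epithelia. Its probe set 1420647_a_at read 12.22, 12.00 and 12.31 in controls and 12.28, 12.19 and 12.39 in induced samples. Krt8 1423691_x_at read 11.52, 11.40 and 11.80 in controls and 11.55, 11.59 and 11.81 in induced samples. Krt8 1435989_x_at read 11.59, 11.32 and 11.56 in controls and 11.49, 11.59 and 11.67 in induced samples. Control 2 was the lowest array in all 3, as for Vim and Fn1 and unlike Epcam 1416579_a_at. The log2 fold changes of its 3 probe sets were 0.11, 0.08 and 0.09.

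**Figure D2:**
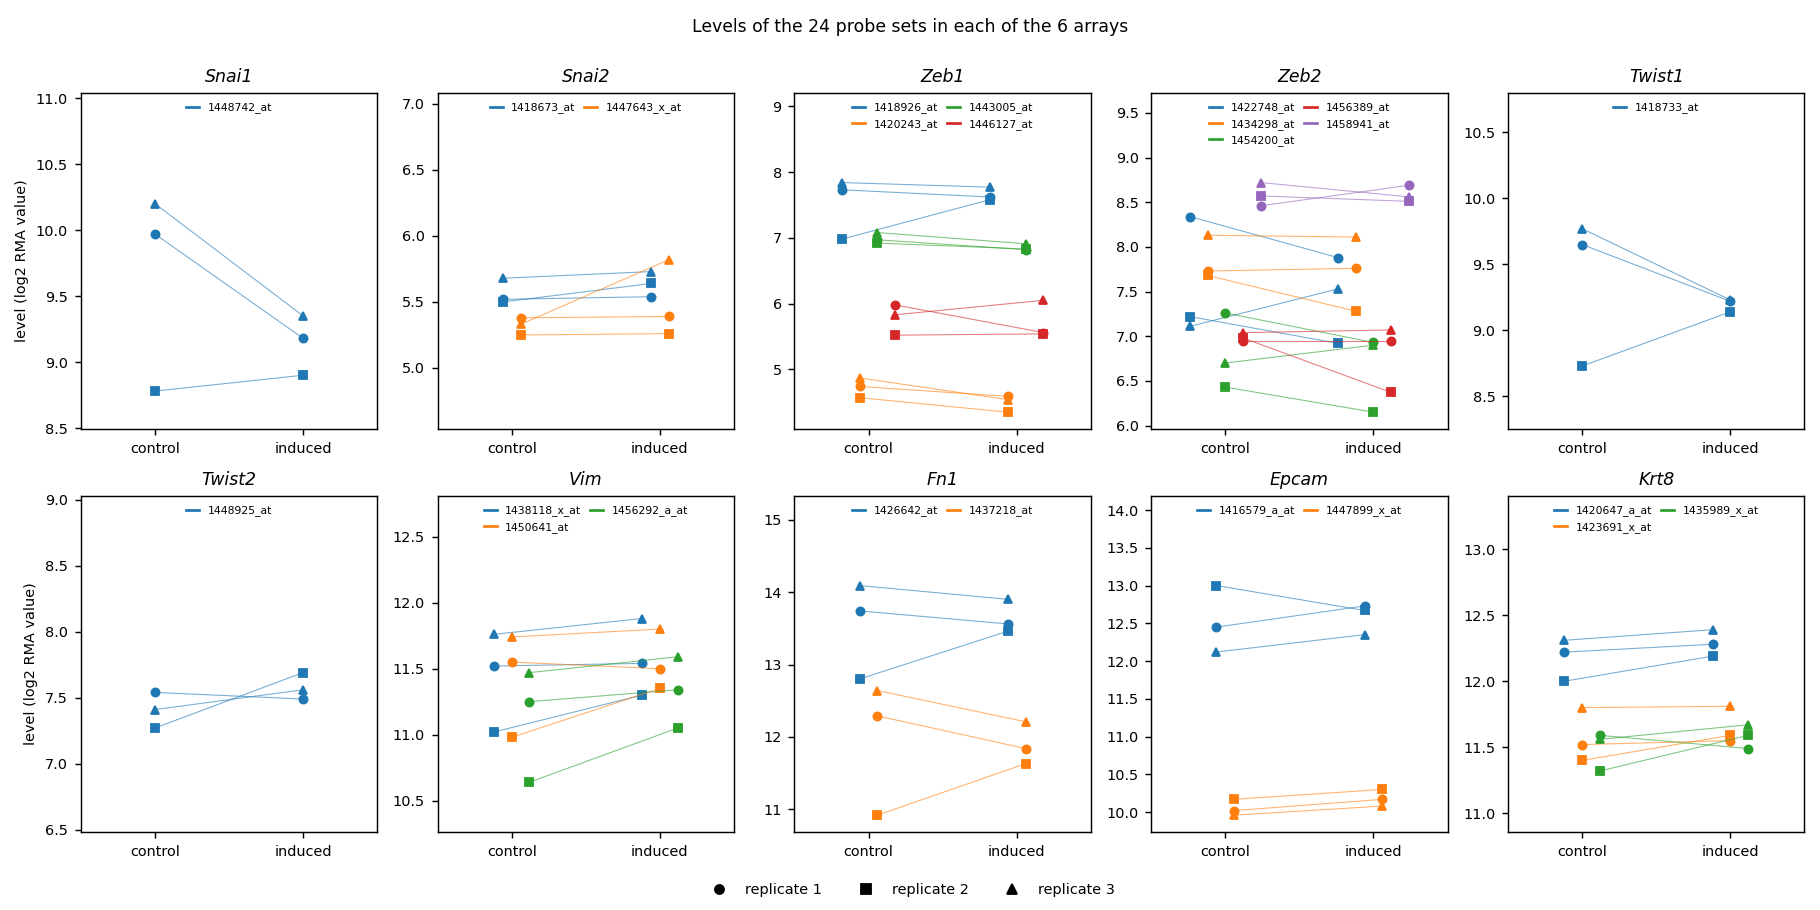
Level (log2 RMA value, vertical axis) of each of the 24 probe sets in the 3 control and 3 induced arrays, 1 panel per gene. Marker shape gives the replicate number, lines join the same number, and colours are probe sets. For Snai1, Twist1 and Fn1 control 2 lies below controls 1 and 3 and the controls spread more widely than the induced samples, and for Epcam 1416579_a_at control 2 lies above them.

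The spread between arrays lay mostly within the control group. The control SD exceeded the induced SD in 19 of the 24 probe sets, beside 47.0% of all probe sets. Control 2 was the lowest of the 6 arrays in 15 of the 24, beside 16.5% of all, and the highest in 1. The median span across the 6 arrays was 0.76 log2 units for the set and 0.33 over all probe sets. At least 1 log2 unit was spanned by 6 of the 24, of Snai1, Twist1, Zeb2 and Fn1, beside 2.86% of all probe sets.

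Across the series, the array medians lay between 7.34 and 7.40, and pairs of arrays correlated at r = 0.9905 to 0.9973 over probe sets. Etv2 read 9.92, 8.59 and 10.71 in controls and 13.27, 13.28 and 13.36 in induced samples. Its log2 fold change was 3.56 ± 0.46, with non-overlapping groups, a limma unadjusted p of 7.58e-05 and an adjusted p of 0.9998. The single probe set past the adjusted threshold belonged to Hprt, with a log2 fold change of 1.57 ± 0.1 and a limma adjusted p of 0.0337. Kdr, the sorted gene, read 10.02, 8.40 and 10.97 in controls and 9.56, 9.36 and 10.52 in induced samples, lowest in control 2.

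The mean level of 14 genes of primitive streak and early mesoderm, among them Eomes, Mesp1 and Pdgfra, was set beside the members in each array. It was 10.72, 9.71 and 11 in controls and 10.21, 10.11 and 10.66 in induced samples. Control 2 was again lowest and control 3 highest. Neither Kdr nor any of the 10 genes is in that mean. Its other genes are Mixl1, Mesp2, Msgn1, Tbx6, Gata4, Gata6, Foxf1, Hand1, Evx1, Cer1 and Lhx1, and T was listed but not measured. Of the 14, 13 had an r above 0 with the mean they are part of. The exception was Msgn1 (r = -0.133), named after its values were seen. Whether the mean follows mesoderm alone was not tested.

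Probe sets of Snai1, Zeb1, Vim and Fn1 rose with the mesoderm mean and 1 of Epcam fell with it in the fit without pairs, and none passed with the replicate numbers as a block. In a limma fit with the mesoderm mean and the group as terms, 7 of the 24 probe sets, of these 5 genes, had a slope past the threshold of 0.05 adjusted over all probe sets, 6 rising and 1 falling. Over all 45037 probe sets 1.23% passed, 0.626% rising and 0.602% falling. With the replicate block added, which leaves 1 residual degree of freedom per probe set, 0 of the 24 and 0 of all 45037 probe sets passed, and the smallest limma adjusted p of the 24 was 0.118. Both fits were added after the levels had been seen. The slope is the change in log2 level per log2 unit of the mesoderm mean.

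The mesenchymal gene Fn1 had the steepest slope of the set, 1.28 ± 0.10 (SE; limma adjusted p = 0.00322) for 1437218_at and 0.95 ± 0.093 (adjusted p = 0.00662) for 1426642_at. Snai1 followed with 1.05 ± 0.12 (limma adjusted p = 0.0104). Zeb1 passed in 1 of its 4 probe sets, 1418926_at at 0.63 (limma adjusted p = 0.0354), and missed the threshold in the others at 0.21, 0.11 and 0.40 (adjusted p = 0.587, 0.867 and 0.325). Vim passed in 2 of its 3 probe sets, 1450641_at at 0.61 and 1456292_a_at at 0.67, and missed the threshold in 1438118_x_at at 0.62 (limma adjusted p = 0.0522). Twist1 had a slope of 0.72 ± 0.13 and also missed it (limma adjusted p = 0.0565). Epcam 1416579_a_at fell with a slope of -0.64 ± 0.10 (limma adjusted p = 0.0321), and the slope of Epcam 1447899_x_at was -0.19 (adjusted p = 0.581). With the replicate block the slopes were 1.35 and 0.99 for Fn1, 1.1 for Snai1, 0.81 for Zeb1 1418926_at, 0.44 for Vim 1450641_at, 0.36 for Vim 1456292_a_at and -0.69 for Epcam 1416579_a_at, none past the threshold.

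The slopes of the remaining genes did not pass. Those of the 3 Krt8 probe sets were 0.25, 0.29 and 0.21, above 0 as for the mesenchymal genes and not past the threshold (smallest limma adjusted p 0.346). Twist2 had a slope of 0.11, and no probe set of Zeb2 or Snai2 passed. Whether a slope passed depended on single arrays. When any 1 array was left out, the 7 called slopes kept their sign. So did all other member slopes except those of Zeb2 1422748_at, Zeb2 1458941_at and Twist2. The 7 were called on these same arrays, so a kept sign is no separate support for them. The called slopes ranged from 0.88 to 0.98 for Fn1 1426642_at, 1.03 to 1.34 for Fn1 1437218_at and 0.71 to 1.13 for Snai1. For Zeb1 1418926_at the range was 0.35 to 0.69, for Vim 1450641_at 0.59 to 0.75 and for Vim 1456292_a_at 0.62 to 0.83. Epcam 1416579_a_at ran from -0.76 to -0.57. The count of 7 became 0 without control 2, where the count over all probe sets was also 0. It was 0 without control 3, beside 0.135% of all probe sets, and 2 without control 1, beside 0.517%. It was 4 without induced 1 (1.03% of all), 4 without induced 3 (0.613%) and 8 without induced 2 (1.61%). It was 3 with Pdgfra alone in place of the mean, for Fn1, Snai1 and Vim, beside 0.475% of all probe sets. With Kdr alone it was again 7, beside 1.42% of all, with 6 of the calls kept: Zeb1 no longer passed and Vim 1438118_x_at did. After quantile normalization it was 8, beside 1.23% of all. After median centring it was 6, beside 1.09% of all, and Epcam was the gene that no longer passed. Without the group term it was 5, beside 1.68% of all, as Zeb1 and Vim no longer passed and Twist1 did (limma adjusted p = 0.0277). Twist1 also passed with array weights, where the count was 9, beside 3.42% of all probe sets. It passed too with 1 probe set per gene, where 6 of the 10 genes passed, beside 3.25% of all genes.

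Correlations over the 6 arrays ran the same way. Fn1 1437218_at reached r = 0.985 (Spearman's rho 1.0), Twist1 r = 0.933 (rho 1.0) and Snai1 r = 0.928 (rho 1.0), each with an exact permutation p of 0.00278, the smallest that 720 orders allow. This test treats the 6 arrays as exchangeable and takes no account of pairs. Epcam 1416579_a_at gave r = -0.978 (rho -0.886, exact permutation p = 0.0111). Of 24 relations, 9 had an unadjusted exact p under 0.05, beside 10.6% of all probe sets, and 0 passed after adjustment over all probe sets, where the smallest adjusted p was 0.299. An r beyond 0.9 in either direction was found in 6 of the 24, beside 1.91% of all probe sets above 0.9 and 2.32% below -0.9. Without controls 2 and 3, the 2 arrays whose mesoderm mean lay farthest from the median, r was 0.988 for Fn1 1437218_at, 0.859 for Snai1, 0.72 for Twist1 and -0.921 for Epcam 1416579_a_at over 4 arrays.

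**Figure D3:**
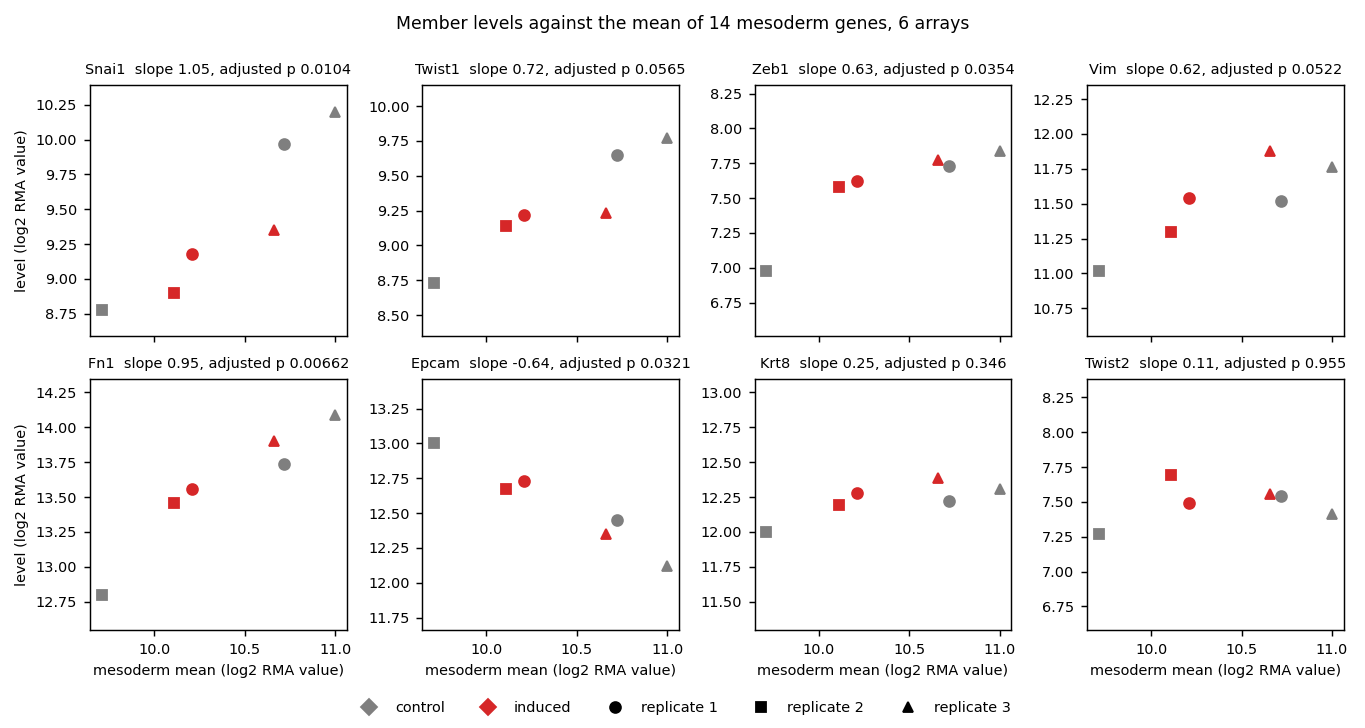
Level (log2 RMA value, vertical axis) of the highest-mean probe set of 8 of the genes against the mean level of 14 mesoderm genes (horizontal axis), 1 point per array, grey for control and red for induced, with marker shape for the replicate number. From control 2 at the left end (9.71) to control 3 at the right end (11), Snai1, Twist1, Zeb1, Vim and Fn1 are higher, Epcam is lower and Twist2 has a slope of 0.11.

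With the mesoderm mean held in the fit, the induced minus control difference was -0.35 ± 0.10 for Snai1 (limma unadjusted p = 0.0106). It was 0.24 for Fn1 1426642_at, 0.23 for Zeb1 1418926_at and 0.31 for Vim 1456292_a_at. An unadjusted p under 0.05 was found in 6 of the 24 probe sets, 3 of them of Vim, beside 1.84% of all. None passed after adjustment (limma adjusted p = 1.0), beside 0.00444% of all probe sets.

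Some of the members also moved with each other. Across the 6 arrays, by the highest-mean probe set of each gene, Snai1 and Twist1 correlated at r = 0.956, Fn1 and Zeb1 at 0.975, Fn1 and Vim at 0.939 and Vim and Krt8 at 0.969. Epcam ran against Fn1 at r = -0.955 and against Krt8 at -0.786. Other pairs were weaker. With the other genes, Zeb2 stood between r = -0.405 (Twist2) and 0.32 (Vim). Snai1 stood at 0.246 with Snai2 and at -0.01 with Twist2, and Twist1 at 0.248 with Twist2. Among the other genes that spanned at least 1 log2 unit, the 3 most like Snai1 over the 6 arrays were Mesp2 (r = 0.989), a factor of early and presomitic mesoderm that is 1 of the 14 genes of the mesoderm mean, Irx5 (0.987) and Slc5a3 (0.969). For Twist1 they were Anpep (0.969), Exoc6b (0.958) and the forkhead factor Foxc1 (0.958), and for Fn1 Zfp703 (0.995), Bace2 (0.995) and Adcyap1r1 (0.994). These points share arrays and normalization, and the values describe likeness only.

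The wider set of epithelial genes, junction proteins and their regulators, had 27 of 28 listed genes measured, each by its highest-mean probe set. None passed the limma adjusted threshold between groups, beside 0.00550% of all genes, and 22 of the 27 log2 fold changes were above 0, beside 51.1% of all genes, with a median of 0.074 against 0.0026. The count above 0 was 24 after quantile normalization and 20 after median centring. Cdh1, the gene of E-cadherin, had a mean level of 13.22 in controls (SD 0.24, n = 3) and of 13.34 in induced samples (SD 0.12). Spint2 stood at 12.29 and 12.39. The largest log2 fold changes were 0.39 ± 0.22 for Pkp2, a desmosome component, and 0.30 ± 0.38 for the claudin gene Cldn7.

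On the mesoderm mean, 6 of the 27 epithelial genes had a falling slope past the limma adjusted threshold and 0 a rising one, beside 0.868% of all genes falling and 0.945% rising. The count was 0 with the replicate block, 0 without control 2, 1 without control 3, 4 without control 1 or induced 3, 5 without induced 1 and 7 without induced 2. With Pdgfra alone in place of the mean it was 2. The 6 genes encode tight junction or polarity proteins and were named after their values were seen. Their slopes were -1.47 for Ocln, -1.22 for Marveld3, -1.15 for Cldn7, -0.86 for Marveld2, -0.84 for Cldn6 and -0.66 for Crb3. In 25 of the 27 genes r with the mesoderm mean was below 0, beside 48.0% of all genes. The list mean by array was 9.46, 9.86 and 9.33 in controls and 9.73, 9.69 and 9.48 in induced samples, highest in control 2 and lowest in control 3. A list of 12 pluripotency and epiblast genes was also highest in control 2 (10.24) and lowest in control 3 (9.46). Falling slopes passed in 6 of the 12, beside 0.868% of all genes falling. They were those of Utf1, Zfp42, Klf2, Sox2, Nanog and Dppa5a, named after their values were seen, from -1.24 to -0.68. The count became 0 with the replicate block, 0 without control 2, 1 without control 3 and 2 without control 1. It was also 2 with Pdgfra in place of the mean. The part of such cells in the members' variation was not tested.

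Of 24 mesenchymal genes, 22 were measured, 10 with a log2 fold change above 0 and 12 below, beside 51.1% of all genes above 0. None passed the adjusted threshold, beside 0.00550% of all genes. Cdh2, the gene of N-cadherin, read 12.58 in controls and 12.74 in induced samples on average, and the cadherin gene Cdh11 read 12.65 and 12.57. The largest log2 fold changes were 0.30 ± 0.078 for Tagln, an actin-binding protein of smooth muscle (limma unadjusted p = 0.00563, adjusted p = 0.9998), and -0.17 ± 0.19 for the fibronectin receptor subunit gene Itga5. Slopes on the mesoderm mean passed in 2 of the 22, both rising, 0.99 for Cdh11 and 0.78 for Cdh2, beside 0.945% of all genes rising. The count was 0 with the replicate block, 0 without control 2 or control 3, 1 without induced 3 and 1 with Pdgfra in place of the mean.

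Other transcription factors tied to the transition had 17 of 19 genes measured, 8 above 0 and 9 below, beside 51.1% of all genes above 0. None passed between groups, beside 0.00550% of all genes. Yap1, the Hippo pathway coactivator, had a mean of 12.50 in controls and 12.30 in induced samples, and Hmga2, a chromatin protein, 12.34 and 12.25. Id2 (0.41 ± 0.24) and Foxc1 (-0.33 ± 0.48) had the largest log2 fold changes. Rising slopes passed for Foxc1 (1.43), Hmga2 (0.97) and Lef1 (0.88), a count of 3 of 17, beside 0.945% of all genes rising. It became 0 with the replicate block, 0 without control 2 or control 3 and 1 with Pdgfra in place of the mean. Lef1 was named after its values were seen. Among 16 corepressors and turnover factors of Snail, 2 had a log2 fold change above 0 and 14 below, beside 51.1% of all genes above 0. None passed, beside 0.00550% of all genes. The count above 0 was 6 after quantile normalization and 1 after median centring. The deacetylase gene Hdac1 read 12.98 and 12.92, and the kinase gene Csnk1a1 12.92 and 12.90. The largest log2 fold changes were those of the ubiquitin ligase genes Btrc (-0.23 ± 0.16) and Fbxl14 (-0.22 ± 0.089), and no slope passed.

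Signals that drive the transition at gastrulation had 25 of 26 genes measured, 10 above 0 and 15 below, beside 51.1% of all genes above 0. None was past the adjusted threshold, beside 0.00550% of all genes. Tdgf1, the Nodal coreceptor gene, read 13.73 in controls and 13.75 in induced samples on average, and the small GTPase gene Rac1 13.19 and 13.11. The largest log2 fold changes were -0.27 ± 0.31 for Tgfb1 and 0.24 ± 0.21 for Tgfb2. The slope on the mesoderm mean passed for Tgfb1, rising at 0.94, and for Nodal, falling at -0.88, beside 0.945% of all genes rising and 0.868% falling. Neither passed with the replicate block, without control 2 or control 3, or with Pdgfra in place of the mean. Tgfb1 was also lost without control 1, and Nodal without induced 2 and without induced 3. Nodal was named after its values were seen.

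**Figure D4:**
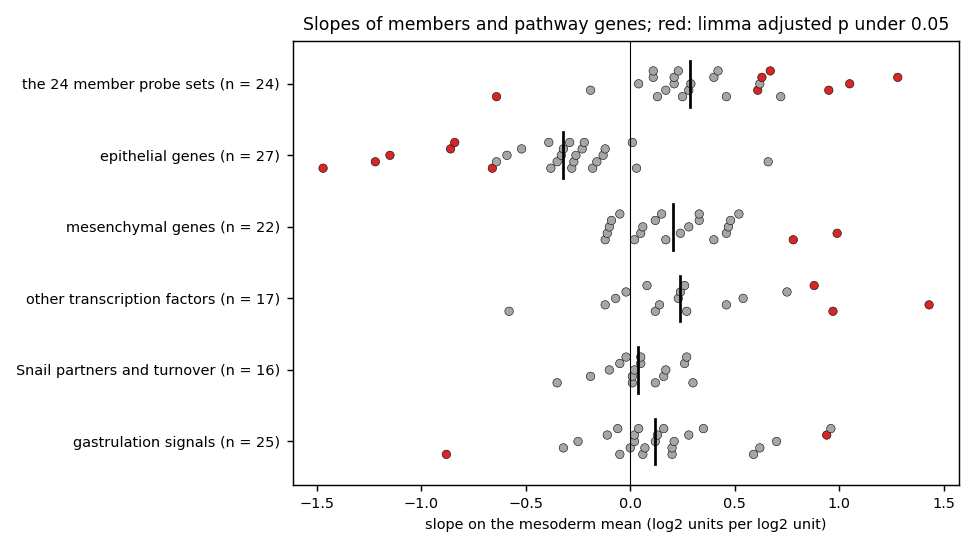
Slope of each gene's level on the mesoderm mean (log2 units per log2 unit, horizontal axis) in the fit without pairs, for the 24 probe sets and for 5 lists with 1 point per gene, red where the limma adjusted p is under 0.05, with black bars at the medians. Epithelial genes lie mostly below 0, down to -1.47 for Ocln, and the mesenchymal genes Cdh2 and Cdh11 lie above it at 0.78 and 0.99.

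Markers of other cell kinds that the sort could hold were set beside the members. The mean level of 12 endothelial genes was 6.64 to 6.74 in controls and 6.76 to 6.93 in induced samples. That of the visceral endoderm list, a tissue rich in Epcam and Krt8, was 7.97 to 8.08 in controls and 8.11 to 8.23 in induced samples. The neural crest and neuroectoderm list stood at 8.48 to 8.53 and 8.41 to 8.57. Log2 fold changes were above 0 in 11 of 12, 10 of 12 and 5 of 10 genes, beside 51.1% of all genes. None passed the limma adjusted threshold, beside 0.00550% of all genes. Induced 2 was highest in each list and had the highest lower quartile of the arrays, 6.06. Some genes lay below that quartile, such as Tie1 (control mean 5.32) and Afp (5.66). Whether these list means follow low signal was not tested. Control 2 was the lowest of the 6 arrays for visceral endoderm (7.97). Single genes of these lists had slopes on the mesoderm mean past the limma adjusted threshold in the fit without pairs, named after their values were seen: Sox17, an endoderm and endothelial factor, at 1.93, Apoe, an apolipoprotein gene, at -1.25, and Foxd3, a factor of neural crest and of pluripotent cells, at -0.93. Those were 2 of 12 visceral endoderm genes, 1 of 10 neural genes and 0 of 12 endothelial genes, beside 0.945% of all genes rising and 0.868% falling. None passed with the replicate block or, except Sox17, without control 3. Without control 2, or with Pdgfra in place of the mean, none passed. The part of these cells in the members' values was not tested.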

How the data were processed

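Values are the authors' deposited log2 levels, 1 per probe set and array. The submitters' processing notes name RMA, a method of background correction, quantile normalization and probe summary, without a version. Scanner files were not used here. After 64 Affymetrix control probe sets were set aside, 45037 remained, of which 34945 had 1 gene symbol in the platform annotation. No dim filter was applied, and 3 arrays per group limit the precision.

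Induced and control arrays were tested two-sided by lmFit and eBayes of limma 3.58.1 (R 4.3.3), fitted on all 45037 probe sets with Benjamini-Hochberg adjustment over all of them and a threshold of 0.05. The scripts were tested on simulated data. For 3 arrays against 3 an exact permutation test cannot go below 0.1. Relations with the mesoderm mean used exact permutations, adjusted over all probe sets and not over the members as first planned. In the lists, each gene is its highest-mean probe set.

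The members and lists were chosen with earlier results of these data known. Named are every member probe set, Etv2 and Kdr, and from each of the 5 pathway lists the genes past the threshold between groups, the 2 highest levels and the 2 largest changes. Marker lists are given by their means. For members spanning at least 1 log2 unit the 3 most correlated genes among those with that span are named. Other genes are said to be named after their values were seen.

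Both groups share replicate numbers in the titles. Deviations from the group means correlated at r = 0.246, 0.168 and 0.234 for numbers 1, 2 and 3. All were above 0.1, the level for treating numbers as pairs, which calls for the fits with the replicate block. No source states a pairing, so the fits without pairs stayed the main ones and the block was an alternative. It was planned for the group comparison and added later for the slopes. With the block 0 of all 45037 probe sets passed, both between groups and for the slope. Differently numbered arrays gave r from -0.385 to 0.211. Control 1 with induced 3 (0.211) and control 2 with induced 1 (0.185) were also above 0.1. Same-numbered arrays were thus not clearly set apart from other combinations, and a shared day or culture is not in the labels. Other alternatives were 1 probe set per gene, a dim filter, quantile normalization, median centring, array weights, a robust trend, leaving out arrays, and 3 sets added after seeing the data: the mesoderm mean as a covariate, the slope fits and their settings.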

Additional observations from a re-analysis of the deposited data

How the results depend on the processing

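No member probe set passed the limma adjusted threshold between the groups under any setting run. Over all probe sets the count of 1 (Hprt) became 0 with the replicate block, which uses the pairing of numbers, and 0 after median centring. It became 2 with the mesoderm mean as a covariate, and it was 0 in all fits that left out an array or a pair. In the group comparison the block changed no other call. With it 2 of the 24 probe sets had a limma unadjusted p under 0.05, beside 1298 of all 45037. These were Snai1 (0.0395) and the dim Zeb1 1420243_at (0.0305). The direction turned for Zeb2 1434298_at with array weights (0.078), Zeb2 1458941_at after centring (-0.011), and Fn1 1437218_at (0.14) and Epcam 1416579_a_at (-0.034) with the covariate. Without the 2 farthest arrays, r turned to -0.455 for Zeb2 1458941_at and -0.42 for Twist2. The cause was not tested.

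Leaving out 1 array or 1 pair in turn, the log2 fold change ranged from -0.94 to -0.23 for Snai1, -0.13 to 0.3 for Zeb1 1418926_at, -0.23 to 0.11 for Zeb1 1446127_at, -0.52 to 0.0058 for Twist1, -0.27 to 0.38 for Fn1 1426642_at, -0.57 to 0.29 for Fn1 1437218_at, -0.14 to 0.3 for Epcam 1416579_a_at and -0.012 to 0.19 for Krt8 1423691_x_at. For Zeb2 it ranged from -0.37 to 0.28 (1422748_at), -0.33 to 0.086 (1434298_at), -0.32 to 0.12 (1454200_at), -0.33 to 0.024 (1456389_at) and -0.11 to 0.09 (1458941_at). For Vim it ranged from -0.071 to 0.3 (1438118_x_at), -0.096 to 0.28 (1450641_at) and -0.033 to 0.38 (1456292_a_at). The count of member slopes, 7, ranged from 0 to 8 when 1 array was left out, was 3 with Pdgfra as the reference and was 0 with the replicate block, which takes the pairing into the slope fit. The block turned the slopes of Zeb1 1420243_at (-0.0075), Snai2 1447643_x_at (-0.2) and Zeb2 1422748_at (-0.17), 1434298_at (-0.48), 1454200_at (-0.17), 1456389_at (-0.72) and 1458941_at (-0.19). When 1 array was left out, slopes ranged from -0.4 to 0.97 for Zeb2 1422748_at, -0.09 to 0.16 for Zeb2 1458941_at and -0.18 to 0.17 for Twist2. The other member slopes, called or not, kept their sign in those fits. Signal over background could not be judged from the deposited values.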

Other observations

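Keratins 8 and 18 pair in the filaments of simple epithelia, and their levels ordered the arrays differently. Krt18 (1448169_at) was noticed after its values were seen. Its slope on the mesoderm mean was -0.26 ± 0.089 (SE; limma unadjusted p = 0.0221, adjusted p = 0.322), while the slope of Krt8 1420647_a_at was 0.25 with an adjusted p of 0.346. These are slopes of the fit without pairs. Neither passed the threshold, and the difference between them was not tested. The desmoplakin gene Dsp, named after its values were seen, also lay apart from the other epithelial genes. Its slope was 0.66 ± 0.13 (limma adjusted p = 0.0653) against a list median of -0.32.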
